A study of Mus musculus with 6 samples.

Results

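The transcripts described are 10 genes that mark secretory and basal cells of the mouse airway, of 19639 genes in a count table of 6 lung libraries. They were taken by symbol, and all 10 were in the table. Scgb1a1 and Scgb3a2 stand for club cells of the distal airways. Scgb3a1, Bpifa1, Bpifb1, Muc5b and Reg3g stand for secretory cells of the larger, proximal airways. Krt5, Krt15 and Trp63 stand for basal cells. They were chosen on their CPM in the same 6 libraries, shThoc1 against shControl, with no threshold, so their levels are given as a description and are not tested. The lungs came from RPM mice that had received lentivirus, 3 libraries with a hairpin against Thoc1 (shThoc1) and 3 with a control hairpin (shControl). In work on small cell lung cancer, RPM stands for mice with loss of Rb1 and Trp53 and raised Myc, and both groups share it. The labels do not give the age of the mice, the cells in which the alleles were recombined, the hairpin sequence or how much tumour a piece of lung held. Whether the 3 libraries of a group stand for 3 animals is not said either, so p-values measure the spread between these libraries only, which may be technical.

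The lining of the conducting airways is kept up by basal cells, which hold the keratins Krt5 and Krt15 and the transcription factor Trp63 (p63) and give rise to secretory and ciliated cells. In the mouse, basal cells are known mainly from the trachea and the largest bronchi, whereas the smaller airways are lined by club cells and ciliated cells. Club cells release secretoglobins, small secreted proteins of which Scgb1a1 (CC10) is the best known. Secretory cells and submucosal glands of the upper airways add the mucin Muc5b, the lipid-binding defence proteins Bpifa1 (SPLUNC1) and Bpifb1 (LPLUNC1), and the antibacterial lectin Reg3g.

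Promoter windows of 300 bases, from 250 before to 50 after the start site, are shown for 4 of the proximal secretory genes. Their transcripts were all highest in the same library. They come from RefSeq on build GRCm38.p6, whereas the counts were made on GRCm39. Windows were at hand for 5 of the 10 genes. The fifth was Krt5, whose transcript was highest in that library too. Its window and a further window for Bpifb1 are not printed, and neither held a match. Capitals mark matches to 3 motifs, searched on both strands and chosen with the sequences in view. They are the core promoter element TATAAA, the forkhead (FOXA) motif TGTTTGC, whose other strand reads GCAAACA, and the AP-1 motif TGANTCA, with N for any base. No matches overlapped.
Scgb3a1, chr11:49663345-49663644, plus strand: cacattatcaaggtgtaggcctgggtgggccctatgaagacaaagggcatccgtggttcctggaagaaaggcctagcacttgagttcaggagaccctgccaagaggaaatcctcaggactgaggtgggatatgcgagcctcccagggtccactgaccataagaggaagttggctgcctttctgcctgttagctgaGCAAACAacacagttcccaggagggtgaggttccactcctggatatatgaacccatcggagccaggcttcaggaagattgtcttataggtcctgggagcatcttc
Bpifb1, chr2:154190568-154190867, plus strand: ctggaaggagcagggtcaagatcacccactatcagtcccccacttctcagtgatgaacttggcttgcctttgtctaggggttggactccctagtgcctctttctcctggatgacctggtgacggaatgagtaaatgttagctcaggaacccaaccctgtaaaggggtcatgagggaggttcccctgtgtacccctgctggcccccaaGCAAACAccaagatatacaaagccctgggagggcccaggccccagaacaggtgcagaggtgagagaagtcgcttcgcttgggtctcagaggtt
Bpifa1, chr2:154142630-154142929, plus strand: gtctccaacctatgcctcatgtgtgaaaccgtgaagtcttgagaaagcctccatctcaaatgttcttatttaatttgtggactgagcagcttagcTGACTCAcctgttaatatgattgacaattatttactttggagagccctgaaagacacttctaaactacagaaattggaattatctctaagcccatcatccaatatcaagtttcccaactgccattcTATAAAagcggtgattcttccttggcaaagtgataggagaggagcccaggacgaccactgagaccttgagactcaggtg
Reg3g, chr6:78468825-78469124, minus strand: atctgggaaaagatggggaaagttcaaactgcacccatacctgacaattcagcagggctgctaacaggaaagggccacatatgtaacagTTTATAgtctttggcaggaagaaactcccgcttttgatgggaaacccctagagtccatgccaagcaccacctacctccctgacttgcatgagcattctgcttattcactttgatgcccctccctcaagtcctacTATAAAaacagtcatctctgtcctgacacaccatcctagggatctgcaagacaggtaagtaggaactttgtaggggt
Scgb3a1 and Bpifb1 each carry a FOXA match, 55 and 43 bases before the start site, counted at the left end of the match. Of 32851 windows of all genes, 5.07% hold one. Bpifa1 and Reg3g each carry a TATAAA match, 29 and 27 bases before the start site, a motif that 13.6% of all windows hold, and Reg3g has another match, on the other strand. Bpifa1 also holds an AP-1 match, found in 7.81% of all windows. A match is a run of letters and was not tested as a binding site. The Krt5 window held none of the 3 motifs.

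Total counts ran from 9934583 in shThoc1 replicate 2 to 15025199 in shThoc1 replicate 1. Levels are given as CPM, counts divided by the TMM-scaled library size. A count of 0 allows up to 0.208 to 0.296 CPM, depending on the library and for counting error only. Thoc1 itself was at 53.4, 69.5 and 61.4 CPM in shThoc1 and 85.7, 80.2 and 85.8 CPM in shControl, with no overlap. Its log2 fold change was −0.45 (SE 0.17), with an adjusted p of 0.304 in edgeR's quasi-likelihood test. With edgeR, 0 of 15287 tested genes (0%) were called in either direction at an adjusted p under 0.05, while 2473 had an unadjusted p under 0.05 and DESeq2 called 916. One library stood apart. In shThoc1 replicate 2 the summed CPM of 14 alveolar type 2 markers was 1025, against 24445 and 22859 in shThoc1 replicates 1 and 3 and 7833 to 18435 in shControl. Its summed CPM of 14 adipocyte markers was 4001, against 305.2 and 258.4 in the other shThoc1 libraries and 125.9 to 310.4 in shControl. Sftpc, the surfactant gene that defines type 2 cells, was detected in every library, at 161.3 to 12597 CPM. In a bulk library, fewer cells of a type and less RNA per cell cannot be told apart.

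The club cell genes were abundant in every library. Scgb1a1 had 21909, 8985 and 17136 CPM in shThoc1 replicates 1, 2 and 3, and 6756, 8472 and 14035 CPM in shControl replicates 1, 2 and 3. The groups overlapped, and the highest and lowest libraries differed 3.24-fold. Scgb1a1 took 0.704% to 2.10% of all counts of a library and ranked between 1 and 4 among all genes by count. Scgb3a2, the second club cell secretoglobin, had 1189, 2447 and 1700 CPM in shThoc1 and 410.6, 595.2 and 1664 CPM in shControl. Its groups overlapped too, since shControl replicate 3 lay above shThoc1 replicate 1. The mean was 16010 ± 6535 CPM in shThoc1 and 9754 ± 3805 CPM in shControl for Scgb1a1, and 1779 ± 632.5 CPM in shThoc1 and 890.0 ± 676.8 CPM in shControl for Scgb3a2 (SD, n = 3 each). The fitted log2 fold change, shThoc1 over shControl, was 0.71 (SE 0.48) for Scgb1a1 and 1.00 (SE 0.60) for Scgb3a2. Without shControl replicate 3, the median of the pair was 1.45, against 0.86 with all libraries, and without shControl replicate 1 it was 0.51. The balance between the pair shifted in 1 library: for every 1000 Scgb1a1 counts there were 54.3, 272.3 and 99.2 Scgb3a2 counts in shThoc1 and 60.8, 70.3 and 118.6 in shControl.

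**Figure D1:**
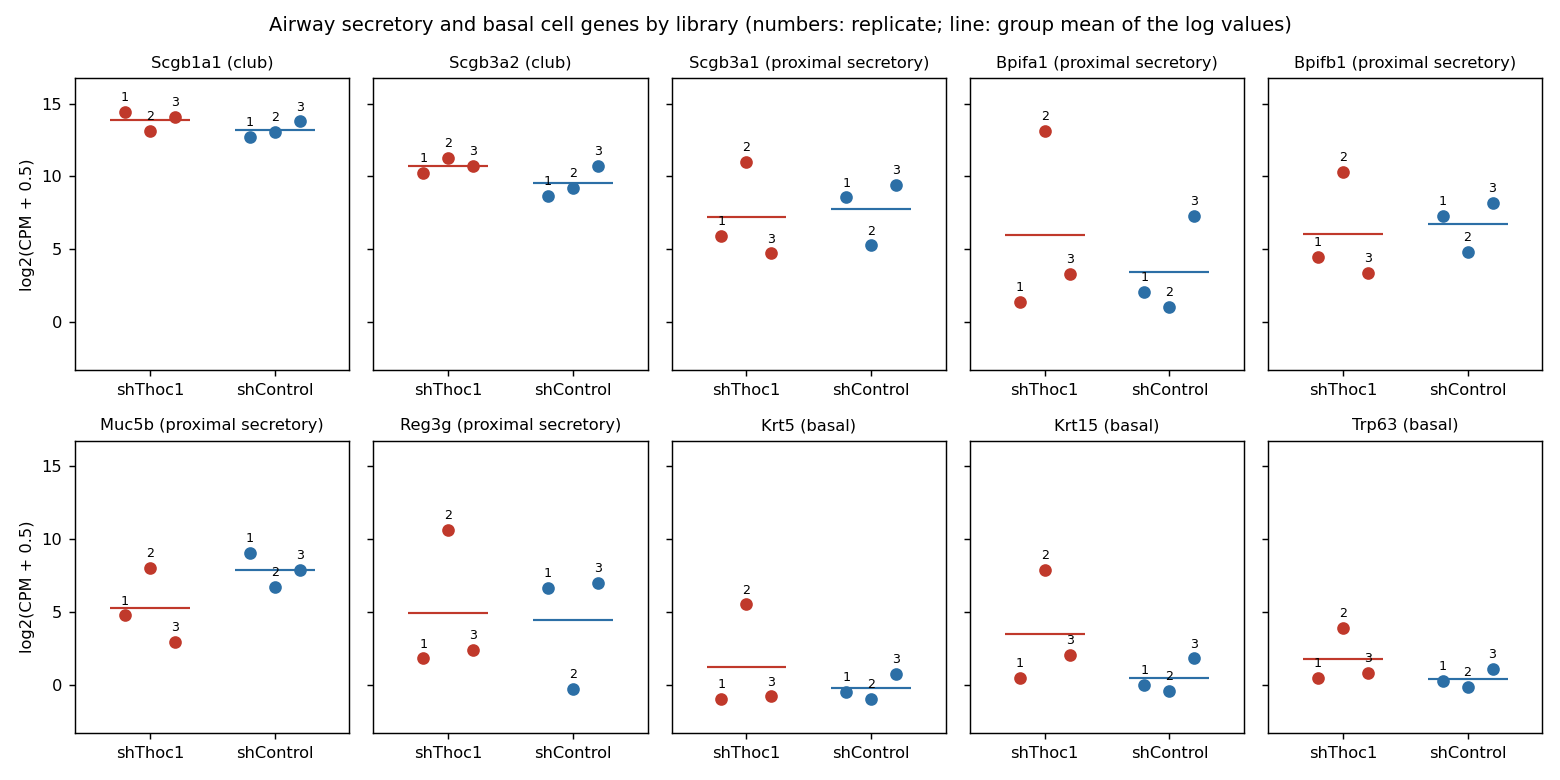
Level of each gene as log2(CPM + 0.5) in 3 shThoc1 libraries (red, left) and 3 shControl libraries (blue, right); numbers give the replicate and lines the mean of the log values. Scgb1a1 and Scgb3a2 are high in all 6 libraries. The top value of each gene is in shThoc1 replicate 2, except for Scgb1a1 and Muc5b. Scgb1a1 peaks in shThoc1 replicate 1, and Muc5b in shControl replicate 1 at 521.6 CPM.

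Other genes of club cells lay higher in shThoc1 for the most part. Of 22 listed genes, 21 were tested, 20 of them had a log2 fold change above 0, and the median was 1.09. Over all tested genes 52.1% were above 0 and the median was 0.03. No gene of the list was called by edgeR (6 had an unadjusted p under 0.05), and none of the 20 with an adjusted p in the authors' deposited table was below 0.05 there. The groups did not overlap for 6 of the 21, all higher in shThoc1, where the share over all tested genes was 11.1% higher and 10.5% lower. The most abundant were Cbr2, a carbonyl reductase, at 5358, 3516 and 5478 CPM in shThoc1 and 846.6, 1219 and 3239 CPM in shControl, and Cyp2f2, the club cell cytochrome P450, at 3085, 2545 and 3182 CPM in shThoc1 and 511.0, 791.0 and 2425 CPM in shControl. Both were among the 6 without overlap. Selenbp1, a selenium-binding protein gene, had 1559, 868.9 and 1557 CPM in shThoc1 and 524.1, 981.9 and 923.9 CPM in shControl, with overlap. The flavin monooxygenase Fmo2 also overlapped, at 1987, 245.4 and 1827 CPM in shThoc1 and 386.4, 728.4 and 652.4 CPM in shControl. Without shThoc1 replicate 2, 17 of the 21 were above 0 and the median was 0.88, beside 46.8% and −0.06 over all genes. Alveolar markers leaned the same way. With all libraries, 13 of 14 type 2 genes (median 0.36) and 12 of 14 type 1 genes (median 0.59) were above 0. Without shThoc1 replicate 2 these were 14 (median 0.78) and 13 (median 1.08).

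In shThoc1 replicate 2 the club cell list split. It held the top level of 8 of the 22 genes and the lowest of 4. The share of all genes with their top level in that library was not counted, for this list or for those below. Lypd2, picked like the next pair for its values, was at 116.5 CPM in that library, against 8.90 and 8.32 CPM in the other shThoc1 libraries and 7.35, 6.61 and 29.2 CPM in shControl. The sulfotransferase Sult1d1 was at 193.1 CPM there, against 12.5 and 12.2 CPM in the other shThoc1 libraries and 6.79, 6.05 and 73.8 CPM in shControl. For both, shControl replicate 3 came next. Scnn1b, a subunit of the epithelial sodium channel that alveolar cells also express, went the other way, at 10.7 CPM against 118.6 and 114.0 CPM in the other shThoc1 libraries and 34.9 to 64.1 CPM in shControl.

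The proximal secretory genes were not steady across libraries. Scgb3a1, a secretoglobin of the upper airways, had 60.3, 2083 and 25.6 CPM in shThoc1 replicates 1, 2 and 3, and 376.3, 37.9 and 695.6 CPM in shControl replicates 1, 2 and 3. Bpifb1 had 21.9, 1247 and 9.96 CPM in shThoc1 and 154.6, 27.9 and 289.2 CPM in shControl. Both genes were high in shThoc1 replicate 2 and in shControl replicates 1 and 3, and low in shThoc1 replicates 1 and 3 and shControl replicate 2, so each group held libraries of either kind and the groups overlapped. The highest and lowest libraries differed 81.3-fold for Scgb3a1 and 125.2-fold for Bpifb1. The pair nonetheless kept almost one ratio: there were 2.75, 1.67 and 2.57 Scgb3a1 counts for each Bpifb1 count in shThoc1, and 2.43, 1.36 and 2.41 in shControl, a 2.02-fold range. The mean was 723.1 ± 1178 CPM in shThoc1 and 370.0 ± 328.9 CPM in shControl for Scgb3a1, and 426.2 ± 710.6 CPM in shThoc1 and 157.2 ± 130.7 CPM in shControl for Bpifb1 (SD, n = 3 each). Of the 4 promoter windows printed above, those of these 2 genes hold the FOXA letters, a motif chosen with the sequences in view. The further Bpifb1 window does not hold them, and any link to the levels was not tested.

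Reg3g followed the same libraries over a wider range. It had 2.99, 1560 and 4.76 CPM in shThoc1 and 101.6, 0.319 and 126.5 CPM in shControl, with 4 counts in shControl replicate 2. The groups overlapped, and replicates of 1 group differed 396.9-fold in shControl alone. Bpifa1 behaved differently. It had 2.15, 8927 and 9.51 CPM in shThoc1 and 3.64, 1.51 and 154.0 CPM in shControl. Of its summed CPM over the 6 libraries, 98.1% lay in shThoc1 replicate 2, where 90384 counts made it the fifth most abundant gene by count, and shControl replicate 3 came next. In shControl replicate 1, Bpifa1 was near its lowest level while Bpifb1 was at 154.6 CPM. The Bpifa1 count per Bpifb1 count was thus 0.0984, 7.16 and 0.955 in shThoc1 and 0.0236, 0.0543 and 0.533 in shControl, a 304.0-fold range. Bpifa1 and Bpifb1 belong to 1 gene cluster on chromosome 2, where the RefSeq annotation puts only Bpifa5 between them. Of the other Bpif genes listed in the count table, Bpifa2, Bpifa3, Bpifb5 and Bpifc reached at most 3.56 CPM in any library.

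Muc5b, a mucin that forms the airway gel, was the 1 proximal gene whose top level was not in shThoc1 replicate 2. It had 26.5, 264.3 and 7.21 CPM in shThoc1 and 521.6, 102.7 and 236.8 CPM in shControl. Only shThoc1 replicate 2 brought the groups to overlap. For each Bpifb1 count there were 1.21, 0.212 and 0.724 Muc5b counts in shThoc1 and 3.37, 3.68 and 0.819 in shControl. The related mucin gene Muc5ac, its neighbour on chromosome 7, had 1.32, 4.74 and 0.594 CPM in shThoc1 and 8.54, 3.35 and 7.54 CPM in shControl, and mucins share repeats, so their counts are uncertain where reads fit both. Set against 1000 Scgb1a1 counts, Muc5b was at 1.21, 29.4 and 0.421 in shThoc1 and 77.2, 12.1 and 16.9 in shControl.

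**Figure D2:**
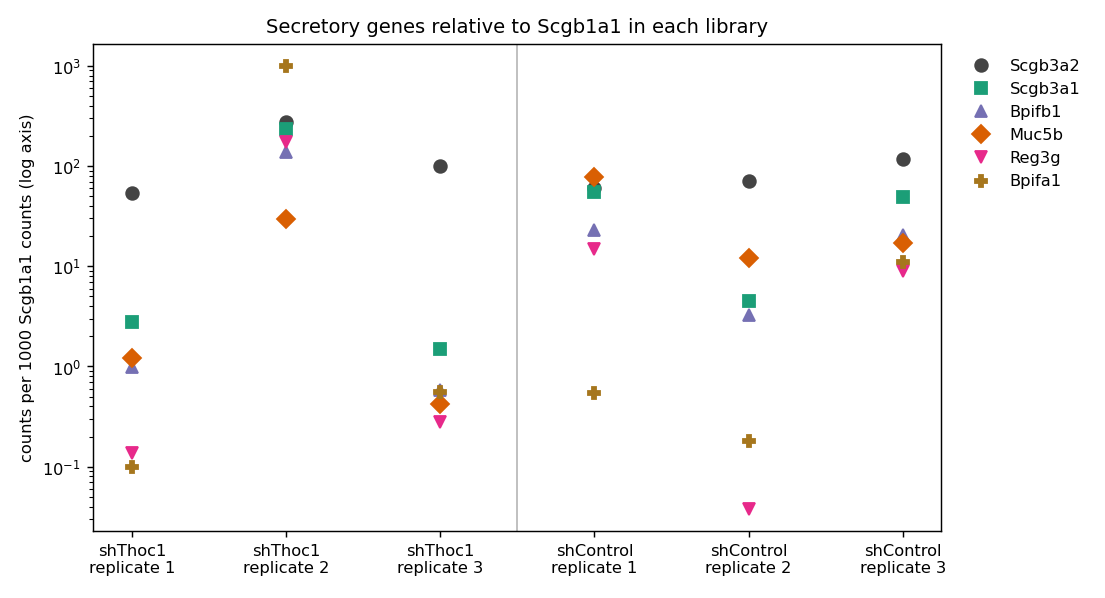
Counts of 6 secretory genes per 1000 Scgb1a1 counts of the same library, on a log axis, with the shThoc1 libraries left of the line and the shControl libraries right of it. Scgb3a2 stays between 54.3 and 272.3, whereas Bpifa1 spans 0.0983 to 993.5.

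Other genes of large airway secretory, goblet and gland cells were split in sign with all libraries. Of 31 genes on the list, 26 were in the table and 23 were tested, 13 with a log2 fold change above 0 and a median of 0.20, and none was called by edgeR, where 0 had an unadjusted p under 0.05, or in the authors' deposited table. The groups overlapped for all 23. Without shThoc1 replicate 2, 5 of 23 were above 0 and 18 below, with a median of −0.71, beside 46.8% above 0 over all genes. Of the 23, 10 then had an unadjusted p under 0.05, as did 5115 of 15647 genes, and edgeR called none. That library held the top level of 18 of the 26. Among the most abundant, Ltf (lactoferrin, made by gland serous cells and by neutrophils) had 22.4, 3284 and 14.2 CPM in shThoc1 and 359.9, 75.2 and 204.8 CPM in shControl. The neutrophil gene S100a9 was at 11.5 CPM in shThoc1 replicate 2, its lowest library, and 241.8 and 127.2 CPM in the other shThoc1 libraries, against 51.7 to 125.0 CPM in shControl. Lcn2 (lipocalin 2) was instead lowest where Ltf was highest, with 252.6, 50 and 184.9 CPM in shThoc1 and 461.4, 536.1 and 73.6 CPM in shControl. Muc1 had 204.4, 118.7 and 247.7 CPM in shThoc1 and 127.2, 234.3 and 98.4 CPM in shControl, and the chloride cotransporter gene Slc12a2 ran from 93.9 to 163.0 CPM in shThoc1 and from 81.1 to 147.8 CPM in shControl.

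A smaller set, chosen after its values were seen, showed the same high libraries as Bpifb1. Gp2, a membrane glycoprotein gene, had 5.14, 150.6 and 1.41 CPM in shThoc1 and 84.9, 9.40 and 74.9 CPM in shControl. Tff2, a trefoil peptide of mucous secretions, had 0.417, 16.4 and 0.743 CPM in shThoc1 and 16.5, 0.558 and 9.96 CPM in shControl. Both were high in shThoc1 replicate 2 and shControl replicates 1 and 3 and low in the other libraries. Agr2, a disulfide isomerase needed for mucin folding, had 0.973, 59.6 and 0.594 CPM in shThoc1 and 9.80, 3.90 and 5.79 CPM in shControl, without that split among the shControl libraries.

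The basal cell genes were scarce except in shThoc1 replicate 2, at no more than 3.64 CPM in any other library. Krt5 had 0, 458 and 1 counts in shThoc1 replicates 1, 2 and 3, and 3, 0 and 16 counts in shControl replicates 1, 2 and 3, or 45.2 CPM in the high library and at most 1.17 CPM elsewhere. It fell short of the count filter and was not fitted. Krt15 had 0.903, 237.9 and 3.64 CPM in shThoc1 and 0.490, 0.239 and 3.00 CPM in shControl. Trp63 had 0.903, 14.4 and 1.26 CPM in shThoc1 and 0.700, 0.398 and 1.61 CPM in shControl. The groups of all 3 overlapped. Of the summed CPM, 96.9% for Krt5, 96.6% for Krt15 and 74.7% for Trp63 came from shThoc1 replicate 2. Of 14891 genes whose 6 counts sum to 100 or more, 28 (0.188%) had at least 90% of their summed CPM in that library, among them Krt5, Krt15 and Bpifa1. The median gene had 15.8% there. Krt19, the gene next to Krt15 on chromosome 11 and a keratin of simple epithelia, was at 190.3, 270.3 and 161.1 CPM in shThoc1 and 114.2, 252.8 and 95.9 CPM in shControl. Outside shThoc1 replicate 2, shControl replicate 3 had the most Krt5 and Trp63, and shThoc1 replicate 3 the most Krt15. Keratin genes have close copies, so single counts of this family are uncertain where reads fit more than 1.

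Other basal cell genes went in 2 directions in that library. All 24 genes on the list were in the table and 19 were tested, 15 of them above 0, with a median of 0.30, and without shThoc1 replicate 2 the median was 0.20 with 12 of 19 above 0. No gene was called by edgeR, and 2 had an unadjusted p under 0.05. Of 18 with an adjusted p in the authors' deposited table, 1 was higher in shThoc1 (2.04% of all genes were) and none lower (3.69% were). It was the hemidesmosome collagen Col17a1, at 1.88, 4.94 and 1.78 CPM in shThoc1 and 0.630, 0.478 and 0.659 CPM in shControl, with no overlap and an adjusted p of 0.0336 in the authors' deposited table and of 0.304 with edgeR. Abundant genes on the list are also expressed outside basal cells. The integrin Itga6 had 175.4, 83.1 and 176.8 CPM in shThoc1 and 100.8, 174.9 and 68.0 CPM in shControl. The cytoskeletal linker Dst was at 116.4 to 207.5 CPM in shThoc1 and 134.8 to 145.7 CPM in shControl. The Notch ligand Jag2 was at 45.7, 31.5 and 39.9 CPM in shThoc1 and 95.3, 46.4 and 86.3 CPM in shControl, without overlap.

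Genes closer to Krt5 in pattern were picked with their values in view. The desmosomal cadherin Dsc3 had 57.9 CPM in shThoc1 replicate 2, 0 CPM in the other shThoc1 libraries and at most 0.0797 CPM in shControl. Its partner Dsg3 did not share that pattern, at 0.198 CPM in shThoc1 replicate 2 and 0 to 0.0732 CPM elsewhere. These levels were within what a count of 0 allows in every library. Krt17 had 0.0695, 28.0 and 0 CPM in shThoc1 and 1.68, 0.159 and 1.76 CPM in shControl. Krt14, the usual partner of Krt5 in stratified epithelium, was by contrast low in every library, at 1.32, 1.68 and 0.0743 CPM in shThoc1 and 0.0700, 0.159 and 0.220 CPM in shControl. Of 13 genes of hillock cells and squamous epithelium in the table, 6 were highest in shThoc1 replicate 2 and 3 lowest. Among their keratins, Krt4 was at 8.79 CPM in shThoc1 replicate 2 and at most 0.366 CPM elsewhere. Krt13 was at 0.446 to 0.494 CPM in shThoc1 and 0 to 0.239 CPM in shControl, and Krt10 ran from 1.82 to 2.08 CPM. Sprr1a was lower in shThoc1, at 0.625, 0.988 and 0.297 CPM against 3.36, 2.87 and 5.49 CPM in shControl, without overlap. Its adjusted p was 0.304 with edgeR and 0.00347 in the authors' deposited table.

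Fold changes of the proximal and basal genes moved by much when shThoc1 replicate 2 was left out. With all 6 libraries the median log2 fold change was 0.86 over the 2 club cell genes, 1.44 over the 5 proximal secretory genes and 4.30 over the 2 basal cell genes that were fitted, against 0.03 over all 15287 genes. Without shThoc1 replicate 2 these medians were 0.78, −3.36 and 0.49, against −0.06 over all genes. Bpifa1 stood at 5.81 (SE 3.43) with all libraries and at −3.26 without it. Reg3g stood at 2.78 (SE 2.60) and −4.36, Bpifb1 at 1.44 (SE 1.80) and −3.36, and Scgb3a1 at 0.97 (SE 1.74) and −3.17. Muc5b was below 0 in both, at −1.53 (SE 1.32) and −4.15. For Scgb3a1 and Bpifb1 the sign of the fit with all libraries is opposite to that of the means of log2(CPM + 0.5), drawn as lines in the plot of levels by library, which were lower in shThoc1. Krt15 stood at 6.00 (SE 2.36) and 0.79, and Trp63 at 2.59 (SE 1.25) and 0.19. In the 2 remaining shThoc1 libraries, Muc5b and Bpifb1 lay below every shControl library, whereas Scgb3a1, Reg3g and Bpifa1 still overlapped with shControl. The share of all genes without overlap in that setting was not counted, so the Muc5b and Bpifb1 levels are a description only. Bpifa1 also turned on shControl replicate 3, without which its log2 fold change was 10.16. With shThoc1 replicates 2 and 3 summed, whose titles share their first number, the proximal median was 0.78. The authors' deposited table lists no p-value for 4 of the 10 genes, Bpifa1, Reg3g, Krt5 and Krt15, as for 202 of its 19639 genes (1.03%), and 149 of those 202 were highest in shThoc1 replicate 2.

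**Figure D3:**
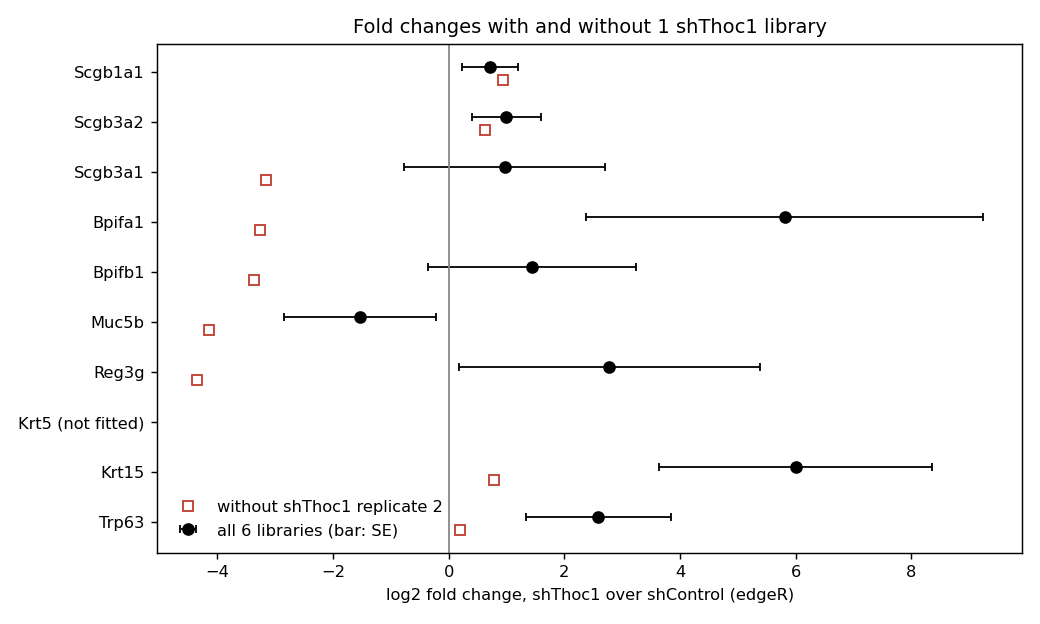
Log2 fold change, shThoc1 over shControl, of each gene with all 6 libraries (black, bar: SE) and without shThoc1 replicate 2 (open red squares). The 5 proximal genes lie at −4.36 to −3.17 without that library; Krt5 was not fitted.

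Markers of other cells differed between the same libraries. All 16 neuroendocrine genes had a log2 fold change below 0. EdgeR called 0 of them, 5 had an unadjusted p under 0.05 (2473 of 15287 genes did), and 4 were called lower in the authors' deposited table, where 3.69% of all genes were. Their median was −3.03, and without shThoc1 replicate 2 it was −6.69. In that setting edgeR called 1 of the 16, and 258 of 15647 genes. All 16 then had an unadjusted p under 0.05, as did 5115 of the 15647. Their summed CPM was 23.0, 260.4 and 25.8 in shThoc1 and 1019, 100.6 and 1058 in shControl. The summed CPM of the 5 proximal secretory genes was 113.8, 14081 and 57.1 in shThoc1 and 1158, 170.3 and 1502 in shControl. In both sums shThoc1 replicates 1 and 3 were lowest and shControl replicate 2 next, and shThoc1 replicate 2 and shControl replicates 1 and 3 were the 3 highest. The 16 dividing cell genes summed to 84.9, 871.7 and 176.0 CPM in shThoc1 and 1850, 892.3 and 1700 CPM in shControl. Alveolar type 1 markers ran the other way, at 8855, 757.4 and 7842 CPM in shThoc1 and 3093, 5661 and 2932 CPM in shControl over 14 genes, as did the type 2 markers given above. The part of any of these in the levels of the airway genes was not tested.

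Ciliated cell markers ranged less than the proximal genes. Over 20 genes, 17 were above 0 with a median of 0.49, and without shThoc1 replicate 2 there were 14, with a median of 0.13. That library held the top level of 15 of the 20, as it did for most proximal genes, and the lowest of none. The summed CPM was nonetheless 2392, 1756 and 2256 in shThoc1 and 914.7, 917.2 and 1632 in shControl, because the lipid-binding protein gene Sec14l3 made up much of it, at 1694, 847.9 and 1547 CPM in shThoc1 and 421.6, 506.4 and 875.2 CPM in shControl. Tppp3 was at 275.5, 250 and 262.1 CPM in shThoc1 and 128.4, 116.8 and 221.1 CPM in shControl, without overlap. Foxj1, the master regulator of motile cilia, was at 64.6, 74.5 and 66.9 CPM in shThoc1 and 73.4, 60.3 and 77.3 CPM in shControl. Cartilage transcripts were scarce in all libraries. The 13 genes summed to 6.25, 25.3 and 19.6 CPM in shThoc1 and 27.9, 53.6 and 8.79 CPM in shControl, and Col2a1, the main cartilage collagen, reached at most 0.910 CPM.

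T cell genes were also highest in shThoc1 replicate 2. The 15 T cell genes summed to 229.2, 1766 and 229.0 CPM in shThoc1 and 152.4, 167.4 and 99.7 CPM in shControl, without overlap, with Ccr7 at 207.7 CPM and Cd3g at 144.1 CPM in shThoc1 replicate 2. Thymic epithelium also holds Krt5 and Trp63. Of 14 of its genes, 8 were highest in shThoc1 replicate 2, with no share over all genes to set beside that count. Aire was at 2.37 CPM there and at most 0.149 CPM elsewhere, and Ly75 at 57.6 CPM there and 12.4 to 29.2 CPM elsewhere. Ccl25 was instead lowest there, at 1.28 CPM against 1.41 to 4.27 CPM elsewhere. Pax1 and Fezf2 were at 0.395 and 0.0988 CPM there, below their 1.26 and 1.89 CPM in shControl replicate 1. The defining genes Foxn1 and Psmb11 had 0 counts in all shThoc1 libraries and at most 0.159 CPM in shControl. Of 15 genes of immature T cells, many of which mature T cells share, 10 were highest in shThoc1 replicate 2. The 15 summed to 175.9, 1264 and 198.8 CPM in shThoc1 and 508.3, 311.5 and 506.1 CPM in shControl. Most of the shControl sums came from Mki67, a gene of dividing cells in general. It had 19.2, 220.1 and 43.7 CPM in shThoc1 and 380.2, 196.4 and 412.8 CPM in shControl. Dntt was at 2.07 CPM in that library and at most 0.140 CPM elsewhere, and Cd8b1 at 118.2 CPM there and at most 7.85 CPM elsewhere, while Rag1 had 0 counts in all shThoc1 libraries. The whole thymic epithelium list of 14 genes, which includes general epithelial genes such as Krt8, summed to 640.7, 992.2 and 617.6 CPM in shThoc1 and 476.7, 734.5 and 466.0 CPM in shControl. The part of thymic or lymphocyte RNA in the basal gene levels was not tested.

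**Figure D4:**
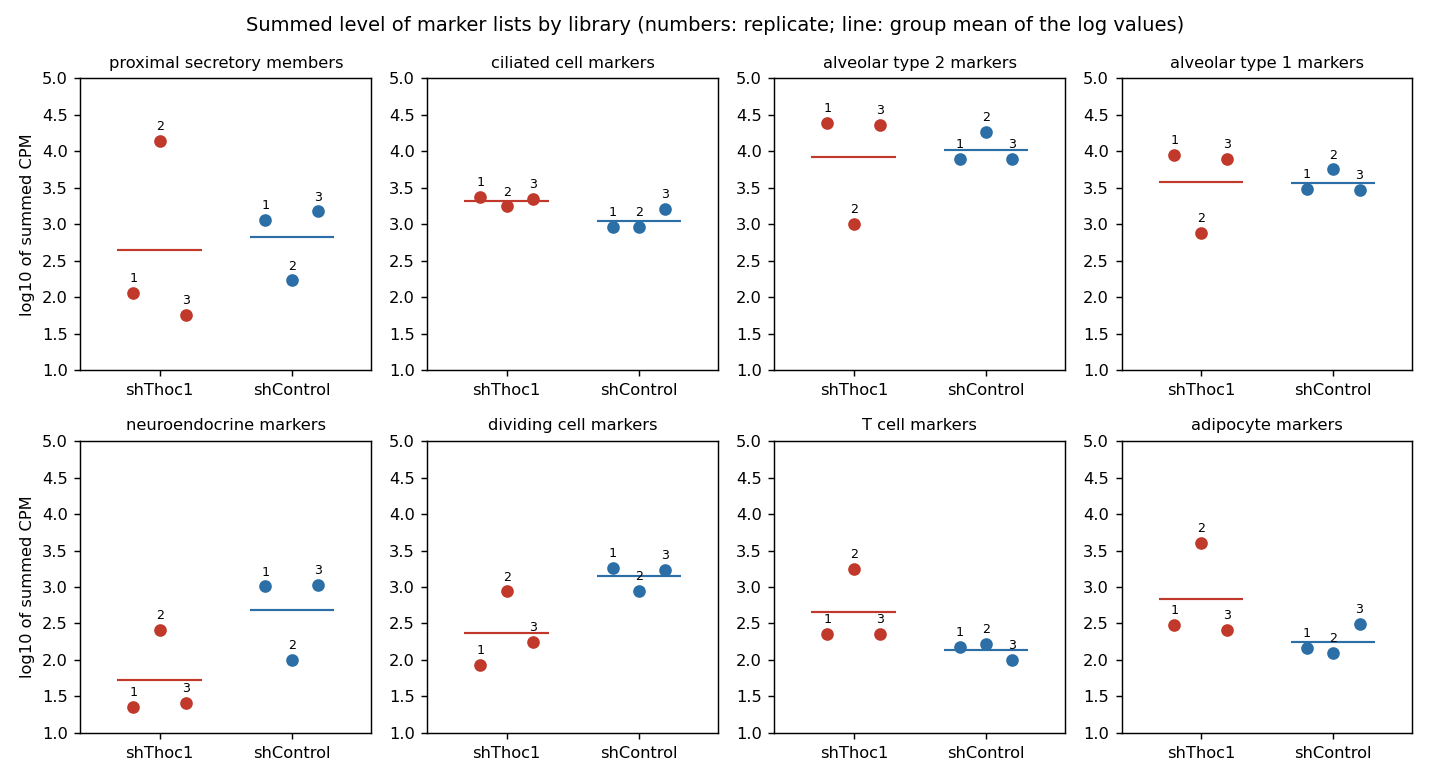
Log10 of the summed CPM of the 5 proximal secretory genes and of 7 marker lists in 3 shThoc1 libraries (red, left) and 3 shControl libraries (blue, right), with replicate numbers and the mean of the log values as a line. shThoc1 replicate 2 is the top library for proximal secretory, T cell and adipocyte genes and the bottom one for both alveolar lists.

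Pearson's r of log2(CPM + 0.5) over the 6 libraries was taken for 15219 genes with a mean of at least 1 CPM. It ranked the genes most like 3 of the airway genes in pattern, whatever their level. For Bpifa1 they were Adipoq (r = 0.998), Cidec, Cfd, Saxo2 and Elof1 (r = 0.991), the first 3 of which are fat cell genes. Adipoq had 0.0695, 147.4 and 0.743 CPM in shThoc1 and 0.0700, 0 and 7.10 CPM in shControl, so that it, like Bpifa1, was highest in shThoc1 replicate 2 and next in shControl replicate 3. For Krt5 they were the fast muscle troponin Tnnt3 (r = 0.998), Serpinb11, the fat cell gene Fabp4, Krt4 and Alox12e (r = 0.996). For Scgb1a1 they were Tmem129 (r = 0.983), Kcnj13, Slc23a2, Spata31f1b and Gp9 (r = 0.976). In 6 libraries such values rest on few points, and 89 genes reached r = 0.95 with Bpifa1, 145 with Krt5 and 27 with Scgb1a1.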

How the data were processed

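RNA was sequenced from 6 mouse lung libraries. The labels' protocols name RNeasy purification and NEBNext Ultra library preparation, and the submitters' processing notes name build GRCm39. The aligner, the counter and whether strand was used are not stated there, so reads of genes that overlap may be shared. The authors deposited raw counts per gene symbol. They also deposited log2 fold changes, standard errors (entered as a score), p-values and adjusted p-values under the column names of DESeq2, and a mean normalized signal, not used here.

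Groups follow the labels, and replicate numbers follow record order and pair nothing. No pair of libraries was alike within sampling noise (smallest chi-square per degree of freedom 20.4). Counts were filtered with filterByExpr, scaled with TMM and fitted with the robust quasi-likelihood test of edgeR 4.0.16 in R 4.3.3. P-values were adjusted (Benjamini-Hochberg) over 15287 genes. Of the 10 airway genes, 9 were fitted. SEs derive from the F statistic. DESeq2 1.42.0, other scalings and filters and leaving out each library were the alternatives. The code was tested on simulated data.

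The 10 genes, the marker lists and the tests were chosen with earlier results of these data known. By rule, the 10 genes and the 4 most abundant genes of a list are candidates to be named, with the 5 nearest in pattern to Scgb1a1, Bpifa1 and Krt5. One gene that the rule names is not reported here. Any other gene was named after its values had been seen.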

Additional observations from a re-analysis of the deposited data

How the results depend on the processing

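The count of called genes was 0 of 15287 with edgeR and 916 with DESeq2, and 0 to 258 when each library was left out in turn; the 258 came without shThoc1 replicate 2, where 0 of the 10 airway genes was called. It stayed 0 under the other scalings and filters and with shThoc1 replicates 2 and 3 summed. Leaving out each library gave medians of 0.51 to 1.45 for the club cell genes, −3.36 to 2.22 for the proximal secretory genes and 0.49 to 5.69 for the basal cell genes, of which 2 or 3 were fitted. The stricter filter of 1 CPM left no basal cell gene. Upper quartile, DESeq2 and total count scaling kept the sign of all 9 fitted genes, 8 above 0 and 1 below. No paired analysis was possible because the titles of the 2 groups share fewer than 2 numbers that could pair libraries. With 3 libraries a group, 1 of which stands apart, the precision of every fold change of the proximal and basal genes is low.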

Other observations

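Cytokines that are known to drive airway secretory genes were scarce. Il17a had 0 counts in all shThoc1 libraries and at most 0.140 CPM in shControl, and Il22 at most 0.0695 CPM in shThoc1 and 0.350 CPM in shControl, while Reg3g, which both can induce, reached 1560 CPM in shThoc1 replicate 2. Il17f, from the same list, had at most 0.0988 CPM in shThoc1 and 0.91, 0 and 0.146 CPM in shControl. In shControl replicate 1, Il17f and Il22 lay above the 0.21 CPM that a count of 0 allows there. Elsewhere, and for Il17a throughout, levels were within what a count of 0 allows. The part of these cytokines in the Reg3g level was not tested. Of 24 genes of interleukin 17 and 22 signalling in the table, 15 were tested, 12 were above 0 with a median of 0.45, and edgeR called none (1 had an unadjusted p under 0.05, and 0 were called in the authors' deposited table). Stat3 was at 233.6, 208.3 and 253.7 CPM in shThoc1 and 171.4, 216.7 and 158.4 CPM in shControl.

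On the list of interleukin 4 and 13 signalling, 12 of 20 genes were tested, 9 above 0 with a median of 0.48, and edgeR called none (2 had an unadjusted p under 0.05). Without shThoc1 replicate 2, 4 were above 0 and the median was −0.75. Stat6, the transcription factor of the pathway, was at 182.7, 163.3 and 155.7 CPM in shThoc1 and 67.8, 103.1 and 71.6 CPM in shControl, without overlap, and had an adjusted p of 0.304 with edgeR and of 0.00492 in the authors' deposited table. Il13 had at most 0.0988 CPM in shThoc1 and 0.0732 CPM in shControl. Genes that respond to these cytokines differed in direction. Retnla, a resistin-like gene, was at 362.9, 60.7 and 276.8 CPM in shThoc1 and 1643, 1498 and 230.0 CPM in shControl. The chitinase-like gene Chil3 was at 1151, 41.9 and 507.4 CPM in shThoc1 and 267.9, 241.2 and 78.1 CPM in shControl. Alox15 was at 50.5 CPM in shThoc1 replicate 2 and at most 1.12 CPM elsewhere, and the decoy receptor Il13ra2 at 3.46 CPM there and at most 0.0700 CPM elsewhere.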
